A study of Mus musculus with 24 samples.

Results

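The 37 genes described here are targets of the peroxisome proliferator-activated receptors (PPARs) and genes of fatty acid oxidation. They were chosen by name, with earlier results of these data known. Probes were matched to them through the RefSeq accession on the array, and all 37 were found among the 22911 genes that could be given a symbol. Of these, 35 could be tested, because the signals of Fabp1 and Cyp4a10 were not well above background on all 4 arrays of any group.

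The PPARs are nuclear receptors that bind fatty acids and their derivatives, pair with a retinoid X receptor and switch on genes for the uptake, binding and oxidation of fat. Fatty acids are activated to coenzyme A esters, carried into mitochondria through the carnitine shuttle and shortened step by step in beta oxidation, while peroxisomes shorten very long chains. In the colon, PPARG is abundant in the differentiated epithelium, and colonocytes use short-chain fatty acids made by bacteria as a major fuel.

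Colon RNA of 24 C57BL/6J mice was measured on Agilent 1-color mouse arrays, with 4 mice on each of 2 diets in males (M), females (F) and ovariectomized females (F(OVX)). M and F had sham surgery, and F(OVX), here also called OVX females, had lost their ovaries. All mice were 7 weeks old at purchase and received azoxymethane (AOM, 10 mg/kg), which starts colon tumors, and 1.5% dextran sulfate sodium (DSS) in 3 cycles, which injures the colon lining. The diet of 14 weeks was low in fat (LFD, with fat at 10 kcal%) or high in fat (HFD, with fat at 45 kcal%), and no group without AOM and DSS was included. The methods name 5 animals a group for the arrays where the labels give 4. The methods also say that the animals closest to the average body weight of each group were taken. By the methods the RNA came from the distal colon, and the mice were killed 75 days after AOM.

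PPARs bind a direct repeat of the hexamer AGGTCA with 1 base between both copies. That hexamer, any 1 base and the hexamer again were searched on both strands of RefSeq promoters (GRCm38.p6, 250 bases before to 50 bases after each start), which the table held for 33 of the 37 genes. With up to 2 mismatches allowed, 7 of the 33 genes (21.2%) held the letters, as did 4.4% of 27025 genes. With up to 1 mismatch, they were found in Fabp1 alone among the 33, and in 0.64% of all genes. The 7 matches are shown because they are the genes whose promoters come closest to the receptor's letters, each written along the strand of its gene.
Fabp1: TGACCTATGGCCT
Cd36: TGGCCTCTGACTT
Creb3l3: AGGGGAGAGGTCA
Plin2: GGACCCCTGACCT
Rxra: TGGTCATAGGCCA
Slc25a20: AGGTGAAAGGTCG
Ucp3: AGGTTTCAGGTCA
These letters are a description of the sequence and not a measured binding site. The Slc25a20 match lay after the start and the other 6 before it, 67 bases before it in Fabp1. The promoters of both intestinal fatty acid binding proteins are shown in full, since Fabp2 was the only one of the 35 genes called in a diet comparison and Fabp1 held the closest match. The 250 bases before the start of Fabp1 (chr6:71199629-71199878, plus strand) have the match in capitals, and those of Fabp2 (chr3:122894822-122895071, plus strand) held no match within 2 mismatches.
Fabp1: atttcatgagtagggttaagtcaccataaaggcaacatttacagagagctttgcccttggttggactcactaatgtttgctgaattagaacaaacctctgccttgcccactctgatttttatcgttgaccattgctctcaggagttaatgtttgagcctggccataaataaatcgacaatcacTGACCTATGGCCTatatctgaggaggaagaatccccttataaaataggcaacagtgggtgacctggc
Fabp2: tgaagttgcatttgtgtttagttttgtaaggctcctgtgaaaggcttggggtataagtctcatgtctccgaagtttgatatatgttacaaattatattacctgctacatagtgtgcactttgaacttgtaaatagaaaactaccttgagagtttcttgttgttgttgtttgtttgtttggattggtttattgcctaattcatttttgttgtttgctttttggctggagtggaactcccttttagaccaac

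Signals are given as log2 values after quantile normalization, so a difference of 1 is a doubling. All 8 epithelial and 6 goblet cell markers, 8 markers of absorptive colonocytes and 7 of smooth muscle were well above background on all 24 arrays. Of 9 skeletal muscle markers, Myh1 and Myh4 were so on 0 arrays and the other 7 on 7 to 24 (Acta1 and Tnni2 on 24). Of 6 brown adipocyte markers, Ucp1 was so on 0 arrays and the other 5 on 1 to 24 (Cox7a1 and Ppara on 24). In such bulk tissue, fewer cells of a type and less RNA per cell cannot be told apart. The arrays of M, F and F(OVX) lay on separate slides, so slide and sex or surgery cannot be told apart, and LFD lay in row 1 and HFD in row 2 of each slide, so row and diet cannot be told apart. Replicates 1 and 2 of M + LFD stood apart from the rest. On these, Hoxb13, a gene of the distal colon and rectum, read 2.18 and 5.04, against 12.58 to 14.79 on the other 22 arrays. The mean of 7 anterior Hox genes was 8.55 and 8.23 on these 2 arrays and at most 7.35 on the others. Of all probes, 61.9% and 60.9% were well above background on these 2 arrays, and 40.5% to 60.1% on the other 22. The part of this difference in the signals of the 35 genes was not tested. The diet differences of the 35 genes in males are therefore also given without both arrays, as single values or as a range.

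The fat oxidation genes were highest on these same 2 arrays. The median deviation of the 35 genes from their own means was 0.55 and 0.68 on these arrays, and -0.22 to 0.34 on the other 22. Both arrays were the 2 highest of all 24 for 16 of the 35 genes (45.7%), against 5.09% of the 22383 genes tested in the fit of all arrays. The mean of these 2 arrays exceeded that of M + LFD replicates 3 and 4 for 33 of the 35 genes (94.3%, against 48.6% of all genes), with a median difference of 0.76 against -0.02 over all genes. The exceptions were the acyl-CoA synthetases Acsl1 (-0.12) and Acsl5 (-0.25). The widest gaps were those of Pdk4 (3.27), Creb3l3 (2.76), Ppara (2.42), Fabp2 (2.11) and Slc25a20 (1.62).

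**Figure D1:**
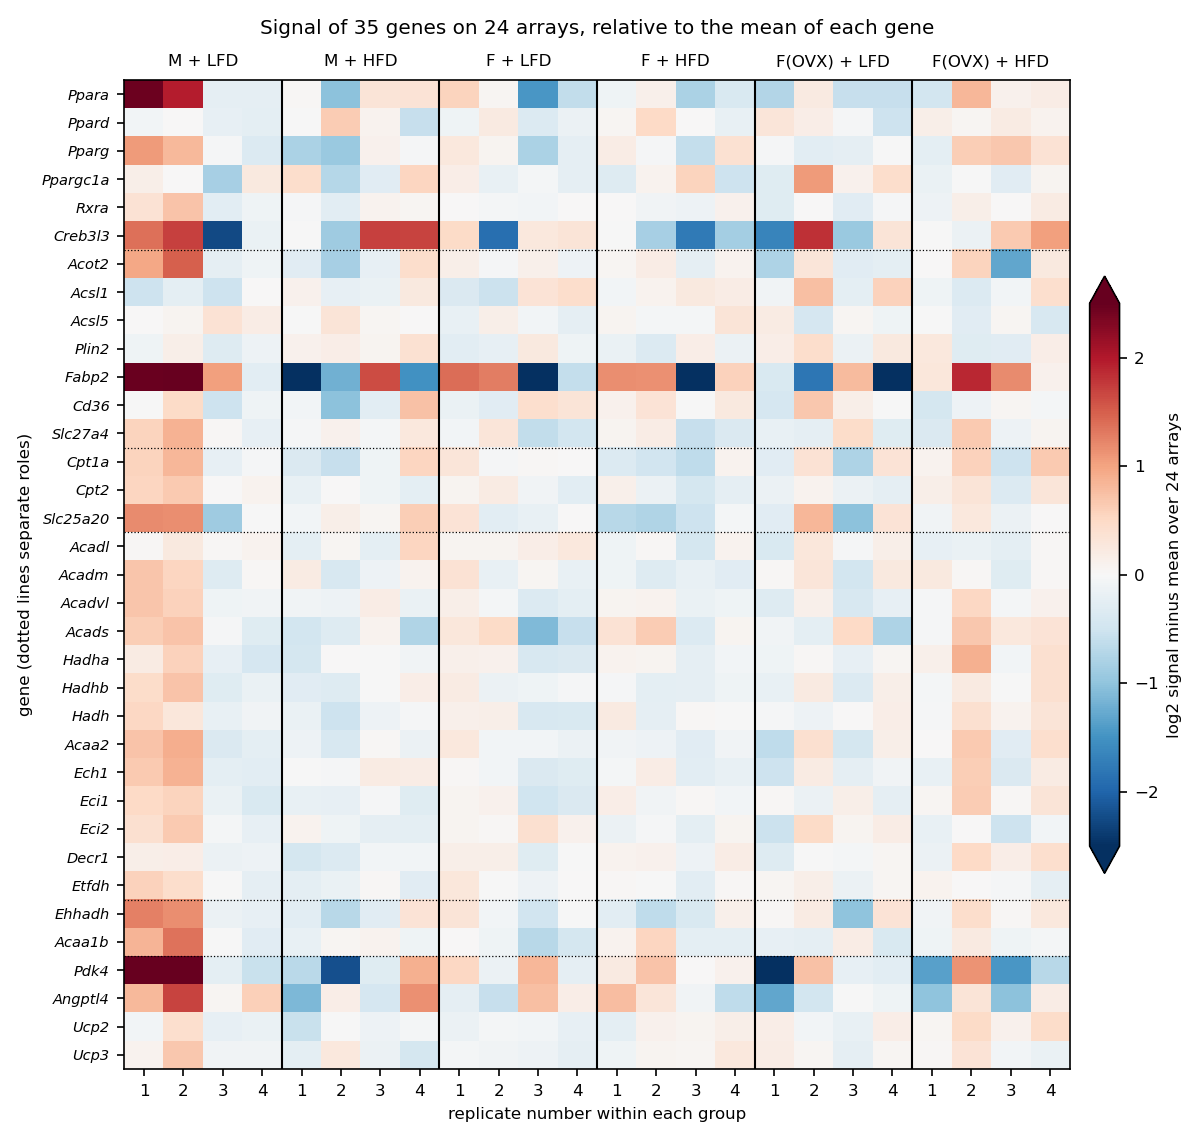
Log2 signal of the 35 tested genes (vertical axis, ordered by role with dotted lines between roles) on the 24 arrays (horizontal axis, replicates 1 to 4 of each group), as the difference from each gene's mean over all arrays (color, red higher, blue lower). M + LFD replicates 1 and 2 are red for most genes, with median deviations of 0.55 and 0.68.

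The question of the design is how HFD differs from LFD within each sex or surgery group. The thresholds of the study were used, so a gene was called if it differed 1.5-fold or more with an unadjusted p under 0.05. In males 1 of the 35 genes was called, Fabp2, which fell (background 4.30% of 20516 genes in both directions, 1.80% down). In females 0 were called (background 1.20% of 22085 genes), with 2 at an unadjusted p under 0.05 by limma and 0 calls by the methods' t-test. In OVX females 1 was called, again Fabp2, which rose (background 2.19% of 19211 genes in both directions, 1.18% up). No gene reached an adjusted p under 0.05 (limma, Benjamini-Hochberg), and the lowest adjusted p was 0.800 (males), 0.991 (females) and 1 (OVX females). The 4 HFD and 4 LFD values overlapped for each of the 35 genes in all 3 comparisons, where 2.60%, 1.90% and 2.30% of all genes did not overlap. Counts of 1 or 0 among 35 genes lie near these background shares.

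In males the HFD mean was lower than the LFD mean for 30 of the 35 genes and higher for 5, with a median difference of -0.30 against 0.01 over all genes. Without M + LFD replicate 2 alone this median was -0.17. Without both low-Hoxb13 arrays, 15 genes were lower and 20 higher, the median was 0.05, and 0 genes were called by limma, with 0 at an unadjusted p under 0.05. In females 13 were lower and 22 higher (median 0.06), and this median was -0.01 once replicate 2 of either F + LFD or F + HFD was left out. In OVX females 10 were lower and 25 higher (median 0.18), and without F(OVX) + HFD replicate 3 the median was 0.28. The standard error of a diet difference had a median over the 35 genes of 0.25 for males, 0.17 for females and 0.21 for OVX females. Of 9 adipocyte markers, Plin1 was well above background on 1 array and Lipe on 4. Adipoq was so on 13, Retn on 14, Cfd on 17 and the others on 22 to 24. The mean signal of the 9 markers ranged from 4.83 to 7.27 in M + LFD and from 4.03 to 5.09 in M + HFD. The part of adipocytes in the male values was not tested. Over the F arrays this mean ranged from 4.83 to 7.35 on LFD and from 5.69 to 7.16 on HFD, and in OVX females from 4.59 to 6.56 and from 4.45 to 6.07. Smooth muscle markers ranged from 11.39 to 12.70 in F(OVX) + LFD and from 12.66 to 13.93 in F(OVX) + HFD, and their part in the values of OVX females was not tested either.

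**Figure D2:**
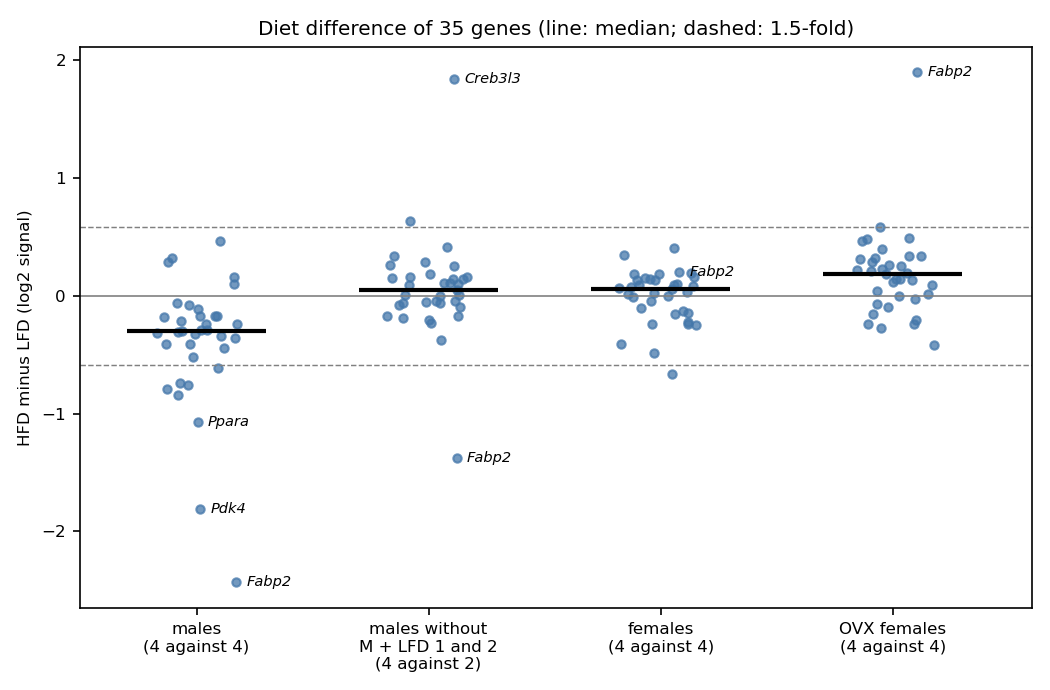
Difference in log2 signal between HFD and LFD (vertical axis) of the 35 genes (points) in males, in males without the 2 low-Hoxb13 arrays, in females and in OVX females (horizontal axis), with medians as black lines and the 1.5-fold threshold dashed. The median moves from -0.30 to 0.05 when both arrays are left out.

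The receptors and their partners came first. Ppara, the receptor that drives hepatic and intestinal fat oxidation, read 11.50, 11.02, 8.84 and 8.83 in M + LFD and 9.09, 8.03, 9.39 and 9.40 in M + HFD. The first 2 LFD arrays lay above every other array of the series, and the other 2 lay within the HFD range. The means were 10.05 ± 1.41 and 8.98 ± 0.65 (SD, n = 4 each), a 2.10-fold difference that was not called (exact permutation test, two-sided, p = 0.286). The difference of -1.07 was 0.14 without both low-Hoxb13 arrays. A second Ppara probe gave -1.21 in males with both of these arrays included.

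In females Ppara read 9.63, 9.11, 7.61 and 8.44 on LFD and 8.96, 9.18, 8.26 and 8.67 on HFD, with HFD inside the LFD range. In OVX females it read 8.34, 9.28, 8.49 and 8.49 on LFD and 8.61, 9.90, 9.17 and 9.25 on HFD. Each of the 4 HFD values exceeded at least 3 of the 4 LFD values, and the difference of 0.58 was not called (limma unadjusted p = 0.0849, exact permutation p = 0.114).

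Pparg, the receptor of adipocytes and of differentiated colonocytes, read 13.55, 13.31, 12.47 and 12.15 in M + LFD and 11.70, 11.56, 12.59 and 12.45 in M + HFD (12.87 ± 0.67 against 12.08 ± 0.52, SD, n = 4 each). The difference of -0.79 was not called (limma unadjusted p = 0.0638, exact permutation p = 0.143), and without both low-Hoxb13 arrays it was -0.23. In females Pparg read 12.75, 12.56, 11.71 and 12.27 on LFD and 12.68, 12.46, 11.90 and 12.87 on HFD. The female diets overlapped almost wholly, at 12.32 ± 0.46 and 12.48 ± 0.42 (SD, n = 4 each). In OVX females it read 12.47, 12.23, 12.27 and 12.48 on LFD and 12.26, 13.11, 13.16 and 12.86 on HFD. There 3 of the 4 HFD arrays lay above all LFD arrays, and the difference of 0.48 (1.40-fold) missed the fold threshold at a limma unadjusted p of 0.0475 and an adjusted p of 1.

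Among the other 4 regulators, Ppard, which responds to dietary fatty acids in most tissues, differed by 0.16, 0.18 and 0.14 (males, females and OVX females, in this order from here on). Rxra, the PPAR partner, differed by -0.22, 0.00 and 0.21, and the coactivator Ppargc1a by 0.10, 0.02 and -0.42. Creb3l3, a membrane-bound transcription factor of liver and gut that works with PPARA, spread over 4.09 log2 units among the 24 arrays and differed by 0.46, -0.66 and 0.49. None of these was called. In males without both low-Hoxb13 arrays, Ppard differed by 0.26, Rxra by 0.15, turning its sign, Ppargc1a by 0.29 and Creb3l3 by 1.84 (limma unadjusted p = 0.0869).

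**Figure D3:**
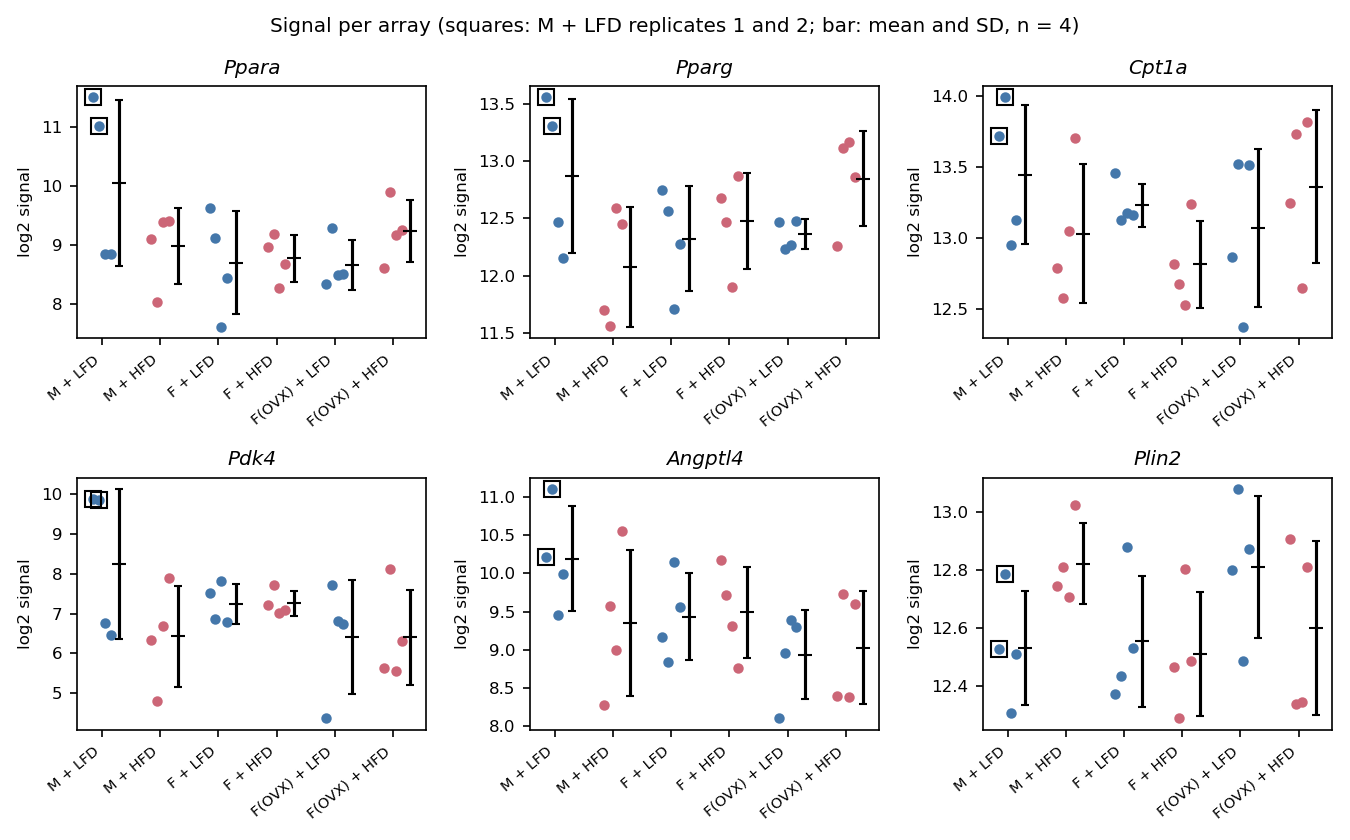
Log2 signal (vertical axis) per array (points, blue LFD, red HFD) in the 6 groups (horizontal axis) for Ppara, Pparg, Cpt1a, Pdk4, Angptl4 and Plin2, with the mean and SD of 4 arrays as black bars and M + LFD replicates 1 and 2 in squares. For Ppara, Pparg and Pdk4 both squares lie above all other points.

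Genes of uptake, binding, activation and storage held the only calls. Fabp2, the intestinal fatty acid binding protein of absorptive enterocytes, read 15.98, 16.05, 14.55 and 13.27 in M + LFD and 10.64, 12.32, 15.15 and 12.01 in M + HFD. The HFD arrays were lower except replicate 3, which lay above 2 of the LFD arrays. Fabp2 fell by 2.43 on the log2 scale (5.40-fold, standard error 0.97), from 14.96 ± 1.32 to 12.53 ± 1.89 (SD, n = 4 each), with an unadjusted p of 0.0355 and an adjusted p of 0.800 by limma with Benjamini-Hochberg adjustment and an exact permutation p of 0.0857.

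In OVX females Fabp2 read 13.14, 11.71, 14.30 and 10.80 on LFD and 13.81, 15.40, 14.70 and 13.62 on HFD. Only LFD replicate 3 reached into the HFD range. Fabp2 rose by 1.90 (3.72-fold, standard error 0.73), from 12.49 ± 1.55 to 14.38 ± 0.82 (SD, n = 4 each), with an unadjusted p of 0.0289 and an adjusted p of 1 by limma with Benjamini-Hochberg adjustment and an exact permutation p of 0.114. In females it read 14.91, 14.81, 10.49 and 12.92 on LFD and 14.69, 14.66, 10.49 and 14.09 on HFD, a difference of 0.20. Replicate 3 was the lowest of its group on both female diets.

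The male call was lost without M + LFD replicate 1 (-2.09), replicate 2 (-2.07) or replicate 3 (-2.57), without M + HFD replicate 1 (-1.80), replicate 2 (-2.36) or replicate 4 (-2.26), and without both low-Hoxb13 arrays (-1.38). The call in OVX females was lost without F(OVX) + LFD replicate 2 (1.64) or replicate 4 (1.33) and without F(OVX) + HFD replicate 2 (1.56) or replicate 3 (1.79).

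Fabp2 went with another posterior Hox gene, Hoxd13, which was singled out after its values were seen. Hoxd13 was not well above background on M + LFD replicates 1 to 3 or F + LFD replicate 2. The same held for F(OVX) + LFD replicate 3 and F(OVX) + HFD replicates 2 and 3. Its lower values are therefore in part near background. The 7 arrays with the highest Hoxd13 (8.53 to 11.38) were the 7 with the lowest Fabp2 (10.49 to 12.32). On the other 17 arrays Hoxd13 read 2.07 to 6.46 and Fabp2 12.92 to 16.05. The 7 arrays were M + HFD replicates 1, 2 and 4, replicate 3 of F + LFD and of F + HFD, and F(OVX) + LFD replicates 2 and 4, so they were 3 of 4 in M + HFD and 0 of 4 in M + LFD. In OVX females they were 2 of 4 on LFD and 0 of 4 on HFD, the reverse order. Once the Hoxd13 signal entered the fit as a covariate (added with the data already seen), the Fabp2 difference was 0.81 for males and 0.93 for OVX females. Hoxd13 was singled out in these same arrays, and in males and OVX females it was uneven between the diets. This fit therefore cannot tell its part from that of the diet, and the part of Hoxd13 in the diet differences was not tested.

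**Figure D4:**
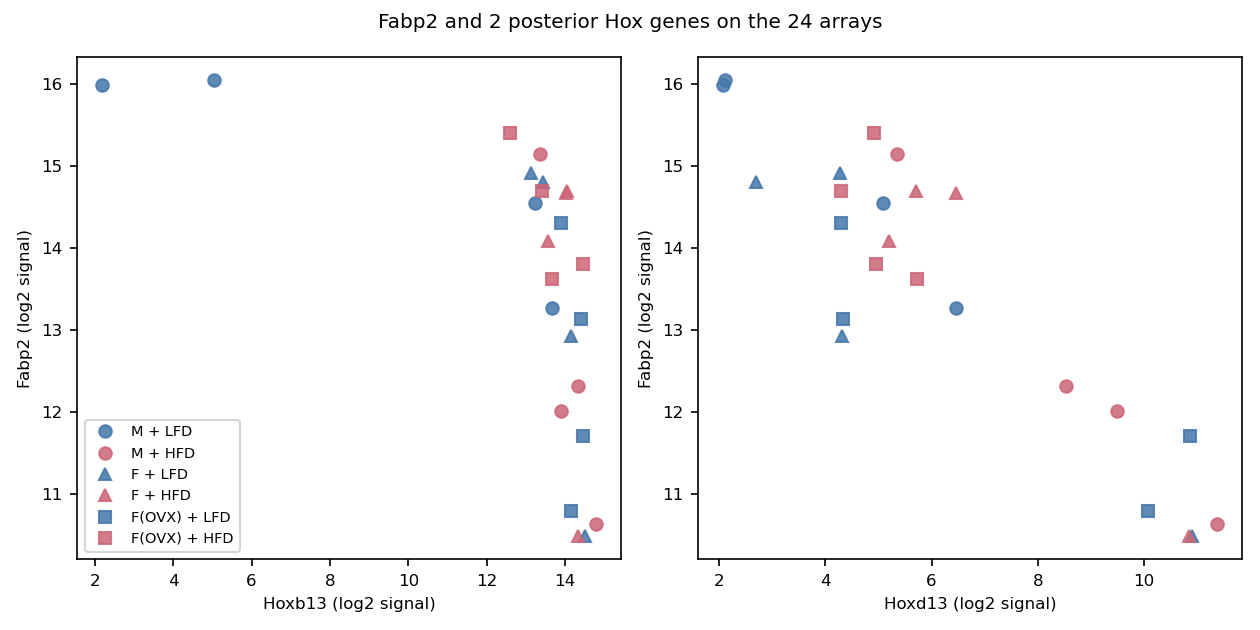
Log2 signal of Fabp2 (vertical axes) against that of Hoxb13 (left) and Hoxd13 (right) on each of the 24 arrays (points; shape, sex or surgery; blue LFD, red HFD). In the right panel the 7 arrays with Hoxd13 from 8.53 to 11.38 have Fabp2 from 10.49 to 12.32, and the other 17 have Fabp2 from 12.92 to 16.05.

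Fabp1, the liver-type fatty acid binding protein also found in the proximal gut, was well above background on 2 arrays only, M + LFD replicates 1 and 2, where it read 5.93 and 8.71. On the other 22 arrays it read 2.13 to 4.73 and was not well above background, so no fold change is given. These are the 2 arrays with low Hoxb13.

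Plin2, which coats lipid droplets, read 12.53, 12.78, 12.31 and 12.51 in M + LFD and 12.74, 12.81, 12.71 and 13.02 in M + HFD. It was higher on HFD except for overlap with LFD replicate 2, a difference of 0.29 (12.53 ± 0.20 against 12.82 ± 0.14, SD, n = 4 each, exact permutation p = 0.0857) that was not called. Leaving out both low-Hoxb13 arrays gave 0.41. Plin2 was thus among the 5 genes with a higher mean in M + HFD, with Acsl1, Ppard, Ppargc1a and Creb3l3. In females it read 12.37, 12.43, 12.88 and 12.53 on LFD and 12.47, 12.29, 12.80 and 12.49 on HFD, a difference of -0.04. In OVX females it read 12.80, 13.08, 12.49 and 12.87 on LFD and 12.91, 12.34, 12.34 and 12.81 on HFD, a difference of -0.21. The female and OVX diets overlapped, and neither difference was called.

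The other 5 genes of this role were not called. The fatty acid translocase Cd36 differed by -0.12, 0.09 and -0.24, and the fatty acid transporter Slc27a4 by -0.24, 0.03 and 0.11. Acsl1, which activates long-chain fatty acids, differed by 0.32, 0.14 and -0.28, and its relative Acsl5 by -0.07, 0.15 and -0.09. The mitochondrial thioesterase Acot2, which releases fatty acids from coenzyme A, differed by -0.76, -0.01 and 0.13. In males without both low-Hoxb13 arrays Cd36 and Slc27a4 turned sign (0.16 each), while Acsl1 differed by 0.26, Acsl5 by -0.19 and Acot2 by -0.06.

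The 3 genes of the carnitine shuttle had lower means on HFD in males (-0.45 to -0.17) and in females (-0.48 to -0.15) and higher means in OVX females (0.04 to 0.29), and 0 of 3 were called in each. Cpt1a, the gated first step of the shuttle, read 13.72, 13.99, 12.95 and 13.13 in M + LFD and 12.79, 12.58, 13.05 and 13.70 in M + HFD. The difference of -0.41 was -0.01 without both low-Hoxb13 arrays. In females Cpt1a read 13.45, 13.12, 13.18 and 13.17 on LFD and 12.82, 12.68, 12.53 and 13.24 on HFD. Of the HFD arrays, 3 lay below all LFD arrays, and replicate 4 above 3 of them. The means were 13.23 ± 0.15 and 12.82 ± 0.31 (SD, n = 4 each), a 1.33-fold difference below the fold threshold (limma unadjusted p = 0.0443, adjusted p = 0.991, exact permutation p = 0.114).

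In OVX females Cpt1a read 12.87, 13.52, 12.38 and 13.51 on LFD and 13.24, 13.73, 12.65 and 13.81 on HFD, a difference of 0.29. Slc25a20, which exchanges acylcarnitine for carnitine across the inner membrane, differed in females by -0.48 (limma unadjusted p = 0.0444), in males by -0.17 and in OVX females by 0.04. The male value turned to 0.64 without both low-Hoxb13 arrays (limma unadjusted p = 0.081). Cpt2, which returns the fatty acid to coenzyme A inside the mitochondrion, differed in males by -0.45 (limma unadjusted p = 0.0362), a value that was -0.17 without both low-Hoxb13 arrays.

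In males all 13 genes of mitochondrial beta oxidation had a lower mean on HFD, from -0.61 for Acads to -0.08 for Acadl, and 0 of 13 were called. The first dehydrogenation is made by Acadvl, Acadl, Acadm and Acads, which act on very long, long, medium and short chains, and they differed in males by -0.32, -0.08, -0.29 and -0.61. Hadha and Hadhb, the subunits of the trifunctional protein that carries out the following steps on long chains, differed by -0.17 and -0.30, and Hadh and Acaa2, which take shorter chains through the last steps, by -0.34 and -0.41. The enzymes that handle double bonds differed by -0.17 (Ech1), -0.31 (Eci1), -0.33 (Eci2) and -0.24 (Decr1), and Etfdh, which passes the electrons on to ubiquinone, by -0.36.

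Without both low-Hoxb13 arrays the 13 values ran from -0.20 for Acads to 0.34 for Ech1. In females 6 of the 13 were lower and 7 higher on HFD, from -0.25 for Acadl to 0.40 for Acads. In OVX females 4 were lower and 9 higher, from -0.24 for Eci2 to 0.47 for Acads. Averaged over males, females and OVX females, 0 of the 35 genes were called (background 0.773% of 22383 genes). Only Eci2 had an unadjusted p under 0.05 in this limma fit (-0.27, unadjusted p = 0.0302, Benjamini-Hochberg adjusted p = 0.984).

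In peroxisomes, Ehhadh, the bifunctional enzyme, differed by -0.74, -0.22 and 0.27, and the thiolase Acaa1b by -0.52, 0.34 and 0.14. The male values were -0.04 and 0.11 without both low-Hoxb13 arrays. Cyp4a10, which hydroxylates fatty acids in the endoplasmic reticulum and is strongly induced through PPARA in liver, was well above background on 0 of 24 arrays by any of its 3 probes, with a brightest probe between 2.06 and 3.12.

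Pdk4, which restrains the use of glucose when fat is burned, read 9.90, 9.87, 6.77 and 6.45 in M + LFD and 6.34, 4.81, 6.69 and 7.90 in M + HFD. The first 2 LFD arrays again stood above all 22 others, while the other 2 lay within the HFD range. The difference was -1.81 (8.25 ± 1.89 against 6.44 ± 1.27, SD, n = 4 each, exact permutation p = 0.171), and -0.17 without both arrays. In females Pdk4 read 7.52, 6.87, 7.83 and 6.79 on LFD and 7.23, 7.72, 7.02 and 7.10 on HFD, and in OVX females 4.37, 7.73, 6.80 and 6.74 on LFD and 5.64, 8.13, 5.55 and 6.31 on HFD. Both of these differences were close to 0 (0.02 and -0.00). Pdk4 was well above background on 23 of the 24 arrays.

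Angptl4, a secreted inhibitor of lipoprotein lipase, read 10.22, 11.11, 9.45 and 9.999 in M + LFD and 8.29, 9.58, 8.995 and 10.55 in M + HFD. The groups overlapped, with a difference of -0.84 (10.20 ± 0.69 against 9.35 ± 0.96, SD, n = 4 each, exact permutation p = 0.229) that was -0.37 without both low-Hoxb13 arrays. In females it read 9.17, 8.84, 10.16 and 9.56 on LFD and 10.17, 9.71, 9.32 and 8.76 on HFD, and in OVX females 8.11, 8.96, 9.39 and 9.30 on LFD and 8.39, 9.73, 8.38 and 9.60 on HFD. These diets overlapped, with differences of 0.06 and 0.09. The mitochondrial carriers Ucp2 and Ucp3 differed by -0.18, 0.14 and 0.26 (Ucp2) and by -0.29, 0.19 and 0.02 (Ucp3), and neither was called. The male values were 0.01 and -0.06 without both low-Hoxb13 arrays.

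Of 102 other genes of fatty acid oxidation, ketone body formation and lipid handling, 85 were tested in males. Of these, 6 fell and 0 rose (background 4.30% in both directions, 1.80% down). The 6 included Acacb, whose product restrains Cpt1a (-1.51), the monoacylglycerol acyltransferase Mogat2 (-1.65) and the malic enzyme Me1 (-1.67). Leaving out both low-Hoxb13 arrays, 2 rose and 1 fell, and the share of all genes called in that fit is not given here. In females 0 of 86 were called. In OVX females 3 of 83 rose, among them Mogat2 (1.14) and the monoglyceride lipase Mgll (0.86), and 0 fell (background 2.19% in both directions, 1.18% up). No adjusted p of these genes was under 0.05 (limma, Benjamini-Hochberg).

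Whether the diet effect differed between sex or surgery groups was tested in 1 limma fit of all 24 arrays. Between males and OVX females, 8 of the 35 genes had a diet effect at least 1.5-fold lower in males at an unadjusted p under 0.05, and 0 had a higher one (background 6.16% in both directions, 3.05% lower and 3.11% higher). They were Ppara (-1.65, standard error 0.75), Pparg (-1.28, standard error 0.45), Fabp2 (-4.33, standard error 1.57), Cpt2 (-0.67), Acadvl (-0.65), Acads (-1.08), Eci1 (-0.62) and Ehhadh (-1.004). The lowest adjusted p was 0.562 by limma with Benjamini-Hochberg adjustment. Without both low-Hoxb13 arrays 0 of the 35 were lower and 1 was higher in males, Plin2 (0.62), and the median over the genes was -0.10 in place of -0.48. Plin2 had an adjusted p of 0.89 there (limma, Benjamini-Hochberg), and the share of all genes called in that fit is not given here.

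Pparg and Fabp2 were called with any 1 of the 24 arrays left out. Cpt2 lost the call without M + LFD replicate 2 (-0.55), and Acadvl without replicate 1 (-0.51) or 2 (-0.55) of M + LFD or replicate 2 of F(OVX) + HFD (-0.53). Acads lost it without any 1 of 6 arrays, M + LFD replicates 1 and 2, M + HFD replicates 1 and 4, F(OVX) + LFD replicate 4 and F(OVX) + HFD replicate 2, with values of -1.05 to -0.87. Ppara lost it without any 1 of 9 arrays, M + LFD replicates 1 and 2, M + HFD replicate 2, F(OVX) + LFD replicates 1, 3 and 4 and F(OVX) + HFD replicates 2, 3 and 4, with values of -1.67 to -1.17. Eci1 lost it without any 1 of 9 arrays, M + LFD replicates 1 and 2, M + HFD replicates 1, 2 and 4, F(OVX) + LFD replicates 2 and 4 and F(OVX) + HFD replicates 2 and 4, with values of -0.62 to -0.48. Ehhadh lost it without any 1 of 14 arrays, 10 of them male or OVX arrays and the others F + LFD replicates 2 and 4 and F + HFD replicates 1 and 3, with values of -1.05 to -0.71.

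The same male arrays enter the comparison with females. There 3 of the 35 genes had a lower diet effect in males, Pparg (-0.95), Acads (-1.02) and Acaa1b (-0.86), and 0 a higher one (background 2.95% in both directions, 1.08% lower and 1.87% higher), with a lowest adjusted p of 0.975 by limma with Benjamini-Hochberg adjustment. None of the 3 was called without replicate 1 or 2 of M + LFD, replicate 1 of M + HFD, replicate 3 or 4 of F + LFD, or replicate 1 or 2 of F + HFD. Without both low-Hoxb13 arrays 0 of the 35 were lower and 2 higher in males, Slc25a20 (1.12) and Creb3l3 (2.504). Both had an adjusted p of 0.999 there (limma, Benjamini-Hochberg), and the share of all genes called in that fit is not given here. Between OVX females and females 0 of 35 were called (background 1.52%), with 0 at an unadjusted p under 0.05 by limma.

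Averaged over both diets, 0 of the 35 genes differed between males and females at the thresholds used (background 5.57%), with differences from -0.21 to 0.93 and a lowest unadjusted p of 0.0511 by limma, and 0 differed without both low-Hoxb13 arrays. Between OVX females and females 0 differed (background 2.15%), with differences from -0.85 to 0.67 and a lowest unadjusted p of 0.0923 by limma.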

How the data were processed

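Each RNA was hybridized by the authors to 1 Agilent array, and Feature Extraction 11.0.1.1 read the spots. The deposited intensity of a spot is its processed signal, corrected for background within the array and not normalized between arrays. Precision is limited by the number of arrays. By the methods mice shared cages, and the labels do not say which ones did. The p-values measure the spread between these mice, and mice of a shared cage may not be independent. As in the methods, the log2 intensity of all 24 arrays was quantile-normalized. The methods filtered probes by a flag that the files used here do not carry under that name, so in its place control spots were left out and spots marked as outliers (52 to 137 per array) were set to missing. Accessions gave a symbol to 58.3% of 56605 probes through a RefSeq gene table of GRCm38.p6, and the brightest probe stood for each gene. Testing required this probe to be well above background on all 4 arrays of 1 or more of the groups compared.

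Each diet comparison was fitted on its 8 arrays with limma 3.58.1 in R 4.3.3 and adjusted by Benjamini-Hochberg over all genes tested. Differences between diet effects, sexes and surgery were contrasts in 1 fit of 24 arrays. Single genes were also tested by exact permutation of the diets (70 assignments, two-sided, smallest p 0.0286). The code was tested on simulated data.

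The genes, the other lists and most alternatives were chosen with earlier results of these data known. All 37 genes are named; each array is given for genes called in a diet comparison and for Ppara, Pparg, Cpt1a, Pdk4, Angptl4 and Plin2. Fabp1 and Cyp4a10 were also due for this, but as they were mostly or wholly not well above background they are given by range. Of the other pathway genes, up to 5 called per diet comparison are named, and some are not reported here. The replicate number is the slide column, and the labels do not say that it pairs mice. In females the deviations of same-numbered arrays from their group means had correlations of 0.26, 0.38, 0.51 and 0.22. For males they were 0.04, -0.25, 0.09 and 0.00 and for OVX females 0.32, -0.06, 0.27 and 0.21.

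Alternatives were scaling to the 75th percentile, normexp background correction (offset 50), other filters on dim probes, the mean of all probes, the replicate block, anterior Hox genes or Hoxd13 as a covariate, the methods' t-test, the fit of 24 arrays and leaving out arrays.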

Additional observations from a re-analysis of the deposited data

Results flagged for a closer look

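Among 210 sets of 4 arrays (35 genes in 6 groups), 9 held 1 array far from the other 3 by Dixon's test, and chance gives such an array in about 1 of 20 sets. Ppara read 9.28 on F(OVX) + LFD replicate 2 and 8.34 to 8.49 on the others. Creb3l3 read 7.46 on F + LFD replicate 2 and 9.60 to 9.81 on the others. Fabp2 read 10.49 on F + HFD replicate 3 and 14.09 to 14.69 on the others, and this array was among those with high Hoxd13. The same array was low for Acaa2 (14.02, others 14.19 to 14.22) and Etfdh (11.51, others 11.76 to 11.81). Cpt1a read 13.45 on F + LFD replicate 1 (others 13.12 to 13.18), and Ucp2 read 11.18 on F + HFD replicate 1 (others 11.50 to 11.57). Acsl5 read 10.68 on M + HFD replicate 2 (others 10.36 to 10.41), and Slc27a4 read 6.16 on F(OVX) + LFD replicate 3 (others 5.39 to 5.51). None of the 9 lay in M + LFD, where 2 arrays stood apart together. Of 105 tests of a difference between diet effects, 0 had an adjusted p under 0.05 (limma, Benjamini-Hochberg), and the lowest was 0.562.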

How the results depend on the processing

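Calls among the 35 genes depended on the setting, and the causes were not tested. The background shares given further above belong to the fits described there, and those of the other settings are not given here. The counts in this section therefore show how calls move and cannot be compared with a background. In males the count of 1 was 3 under normexp (Pparg, Acads and Fabp2), 4 in the fit of 24 arrays (Pparg, Ehhadh, Pdk4 and Fabp2), and 0 without the filter, under the methods' t-test and without both low-Hoxb13 arrays, with 0 to 6 when 1 array was left out. It was 1 with either Hox covariate, but these were other calls, Creb3l3 up (2.30) with the anterior Hox genes and Fabp2 up (0.81) with Hoxd13, and the male median of -0.30 was 0.11 and 0.14 with them and 0.0495 without both low-Hoxb13 arrays. In OVX females the count of 1 was 0 after scaling to the 75th percentile, under the methods' t-test and in the fit of 24 arrays, 4 with Hoxd13 (Ppara, Cpt1a, Acaa2 and Creb3l3, all up), and 0 to 3 without 1 array. In females the count of 0 was 1 with Hoxd13 and 0 to 1 without 1 array, and in the average over the 3 groups it was 1 with Hoxd13.

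With the replicate block, males had 0 calls among the 35 genes, females 0 and OVX females 1. Differing diet effects between males and OVX females numbered 9 in place of 8, and between males and females 3 as without it. The block took the female calls over all genes from 264 to 586. By the labels, same-numbered samples of both diets share only a number, in females as in males and OVX females. In the layout of the arrays they also share a slide and a slide column.

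For the diet effect in males against OVX females, the count of 8 was 5 after scaling, 0 with either Hox covariate, 1 (up) without both low-Hoxb13 arrays and 2 to 15 without 1 array. For males against females, the count of 3 was 1 after scaling, 0 with either Hox covariate and 0 to 6 without 1 array. For OVX females against females it was 1 with the mean of all probes (Cpt2) and 0 to 1 without 1 array. For the sexes the count of 0 was 1 with the filter on all 24 arrays and 1 with Hoxd13 (Ppara both times) and 0 to 3 without 1 array. For surgery it was 1 with the anterior Hox genes (Ppara). Hoxd13 as a covariate was chosen after seeing the data. Each diet comparison rests on 4 arrays per diet.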

Other observations

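The diet effect in males against OVX females was tested for 86 other genes of fat oxidation, ketone body formation and lipid handling. It was at least 1.5-fold lower in males for 14 and higher for 1, at an unadjusted p under 0.05 by limma. The background was 6.16% of all genes in either direction, 3.05% lower and 3.11% higher. Among the 14 were Acacb (-2.32, standard error 0.67), Mogat2 (-2.80) and Mgll (-2.14), and the lowest adjusted p was 0.562 (limma, Benjamini-Hochberg). Without both low-Hoxb13 arrays, 3 were lower and 0 higher, and with Hoxd13 as a covariate 2 were lower. The shares of all genes called under these settings are not given here.

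The array carried 1 further probe for 10 of the 35 genes. Its diet difference had the same sign as that of the brightest probe for 9 of the 10 in males and also in females, and for 7 in OVX females. The widest gap between both probes was 0.58, in males.

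Over the 22 arrays other than M + LFD replicates 1 and 2, the signals of Fabp2 still spread over 4.91 log2 units and those of Creb3l3 over 4.09, Pdk4 over 3.76, Angptl4 over 2.45 and Ppara over 2.29. The narrowest spreads of the 35 genes over these arrays were those of Rxra (0.50) and Etfdh (0.55).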
